A study of Mus musculus with 14 samples.

Results

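The testis tissue cut out by laser here joined young round spermatids (steps 1 to 3) and elongated ones (steps 9 to 16) in a single sample. Libraries of this region from mice without Tsga8 were compared with those from control mice over all genes that reached 1 RPKM in at least 2 of the 4 libraries. RPKM counts reads per kilobase of gene and is scaled to the depth of the library. The filter kept 6634 of 25965 genes in the table. Of these, 4184 reached 1 RPKM in all 4 libraries, 237 in exactly the 2 knockout libraries and 208 in exactly the 2 control libraries. Another 2207 genes reached it in 1 library only and were not tested.

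The study measured RNA of adult male mice in 14 libraries. The region described here had 2 libraries of knockout mice (Tsga8-/Y) and 2 of control mice (Tsga8+/Y). The other captured region, round spermatids of steps 4 to 8, also had 2 libraries per genotype, and whole adult testis had 3 per genotype. The labels give the tissue, the genotype and the sex of each sample, but not the strain, the age in weeks or the part of Tsga8 that was removed. The series text speaks of replicate animals, without saying which captures came from 1 animal. Laser capture enriches for a cell type and does not purify it, and in such bulk samples fewer cells of a type and less RNA per cell cannot be told apart.

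Spermatids are the haploid cells that become sperm. Over their steps a round cell grows an acrosome, a tail and a condensed head, in which histones give way to transition proteins and then to protamines. The X and Y chromosomes are silenced during meiosis and stay at low activity in round spermatids, except for spermatid genes and multicopy families that are active there. Tsga8 lies on the X chromosome and is known as a gene of haploid germ cells that encodes an alanine-rich acidic protein, also named Halap-X. The Cypt family encodes cysteine-rich proteins of the perinuclear theca, the shell between the sperm nucleus and its membranes, and several members are X-linked.

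No gene passed the adjusted threshold, but the X chromosome had a larger share of its tested genes at an unadjusted p under 0.05 than any autosome. The upstream sequence of 3 X-linked genes that were lower in the knockout and of 1 that was higher is therefore shown first. Each line gives the 250 bases before the RefSeq transcription start (GRCm38.p6, the same assembly as mm10), 5′ to 3′ on the strand of the gene. Capitals mark 4 motifs: the CCAAT box, the first part of a cAMP response element (TGACG), the TATA box (TATAAA) and the GC box (GGGCGG). Each was searched on both strands, and no matches overlapped in these windows. Tsga8 is the targeted gene, Cypt3 and Tspan6 were lower and belong to the sex-linked spermatid list, and Timp1 was nearly undetected in control libraries. The windows lie at chrX:83487925-83488174 (Tsga8, minus strand), chrX:153558343-153558592 (Cypt3, plus strand), chrX:133898430-133898679 (Tspan6, minus strand) and chrX:20869916-20870165 (Timp1, plus strand).
Tsga8: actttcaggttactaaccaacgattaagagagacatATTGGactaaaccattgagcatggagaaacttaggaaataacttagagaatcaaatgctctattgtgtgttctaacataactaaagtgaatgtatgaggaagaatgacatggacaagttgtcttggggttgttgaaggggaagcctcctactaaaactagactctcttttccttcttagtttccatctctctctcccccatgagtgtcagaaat
Cypt3: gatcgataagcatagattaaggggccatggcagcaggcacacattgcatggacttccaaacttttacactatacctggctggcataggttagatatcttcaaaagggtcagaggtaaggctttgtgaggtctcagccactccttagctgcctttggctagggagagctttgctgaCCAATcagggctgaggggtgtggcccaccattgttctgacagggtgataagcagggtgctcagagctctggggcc
Tspan6: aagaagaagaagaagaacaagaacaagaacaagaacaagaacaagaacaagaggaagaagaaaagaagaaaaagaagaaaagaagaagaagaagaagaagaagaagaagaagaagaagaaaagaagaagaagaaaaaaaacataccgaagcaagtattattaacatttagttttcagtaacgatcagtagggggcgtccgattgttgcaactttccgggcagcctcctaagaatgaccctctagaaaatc
Timp1: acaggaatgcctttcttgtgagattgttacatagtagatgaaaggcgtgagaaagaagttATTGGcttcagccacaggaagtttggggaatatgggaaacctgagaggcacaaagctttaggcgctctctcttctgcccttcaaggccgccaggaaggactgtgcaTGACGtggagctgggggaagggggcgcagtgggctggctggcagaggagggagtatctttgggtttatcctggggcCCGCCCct

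A CCAAT box was found in the windows of Tsga8, Cypt3 and Timp1. In Timp1 a TGACG and a GC box were found as well, and the Tspan6 window held none of the 4 motifs. Promoters could be matched for 4251 of the 6634 tested genes and for 104 of the 170 tested X-linked genes. CCAAT stood in 58.7% of those X-linked windows and in 34.5% of all 27025 windows of the table. It stood in 7 of 13 windows of the X-linked genes that were lower at an unadjusted p under 0.05 and in 8 of 17 windows of those that were higher. The full cAMP response element, TGACGTCA, was in 1.62% of all windows and in none of these 30 windows, which says only that these letters were not in them.

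The 4 libraries rested on 38631500 and 58676400 reads in the knockout and 23467200 and 49051300 reads in the control. The replicates of this region were far apart: Spearman's correlation across genes was 0.826 between the knockout libraries and 0.723 between the control libraries. Control library 1 stood out. Protamine and transition protein genes took 2.00% and 0.887% of the reads in the knockout libraries, 6.32% in control 1 and 1.58% in control 2. Acrv1, an acrosomal protein gene of round spermatids, stood at 76.2 and 53.4 RPKM in the knockout, 9.99 in control 1 and 94.1 in control 2. Leaving it out moved many of the values below, and the larger moves are given beside them.

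Markers of the labelled cells were abundant. The 10 late spermatid markers summed to 29758 and 12646 RPKM in the knockout and to 96413 and 21257 RPKM in the control, and none was at 0 reads. The 7 early round spermatid markers summed to 326 and 321 RPKM in the knockout and to 534 and 293 RPKM in the control. Tssk2 alone gave 189 and 229 RPKM of this in the knockout and 515 and 161 RPKM in the control. On the mean log2(RPKM + 1) scale these markers were lowest in control 1, at 2.71. Sertoli cells, the somatic nurse cells whose arms wrap around spermatids, left 318 and 256 RPKM over 13 markers in the knockout and 95.1 and 146 RPKM in the control. Their mean log2(RPKM + 1) was 2.47 and 2.61 in the knockout, 1.53 in control 1 and 2.598 in control 2, so only control 1 was lower on that scale. The 8 Leydig cell markers summed to 2.08 and 24.6 RPKM in the knockout and to 8.599 and 85.0 RPKM in the control, with a wide spread within each genotype. Cyp17a1 and Lhcgr, 2 defining Leydig genes, had 0 reads in knockout 1 but 351 and 74 reads in knockout 2. Macrophage markers were mixed: Cd68 had 0 reads in all 4 libraries, and Lyz2, C1qa and Cd74 had at most 49 in any. Csf1r had 1195 and 1361 reads in the knockout and 95 and 749 in the control. C1qb had 416 and 690 reads in the knockout and 768 and 292 in the control. Spermatogonial markers summed to 0.503 and 1.16 RPKM in the knockout and to 0.950 and 3.92 RPKM in the control.

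**Figure D1:**
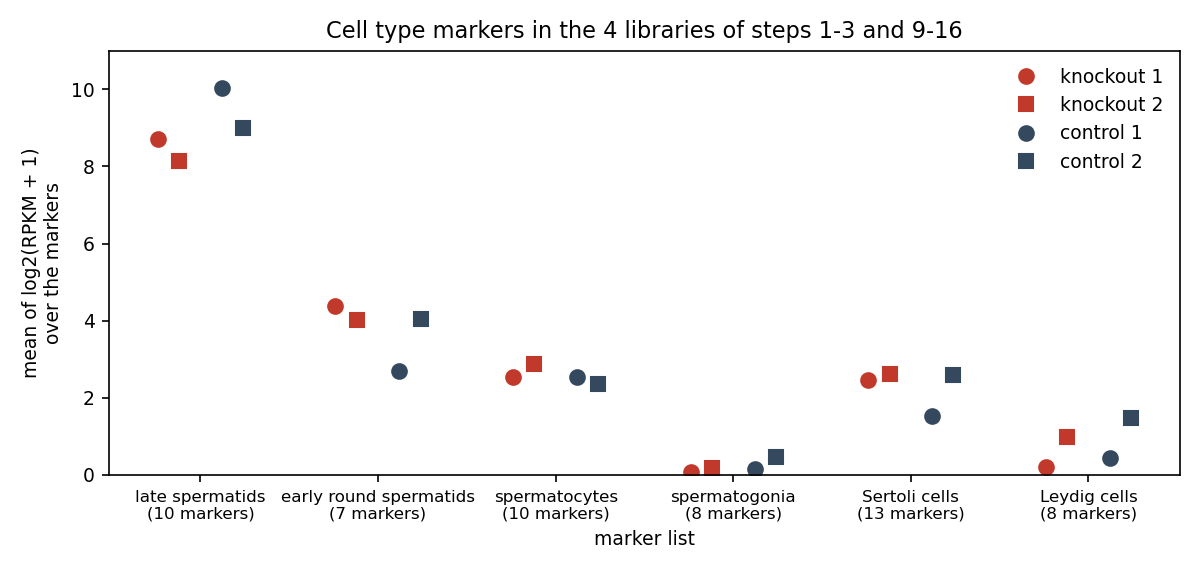
Mean log2(RPKM + 1) over the marker genes of 6 cell types (y axis) in each of the 4 libraries, knockout in red and control in dark blue. Late spermatid markers were highest in control 1 at 10.03, and early round spermatid markers were lowest there at 2.71, against 4.03 to 4.38 in the other libraries.

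Tsga8 itself came first among the checks. The gene spans chrX:83486678-83487924 (mm10) on the minus strand, has 2 exons in GENCODE M21, and lies within the span of Dmd, on the opposite strand. It stood at 9.42 and 6.96 RPKM in the knockout, against 56.9 and 209 RPKM in the control. The mean was 8.19 ± 1.75 RPKM in the knockout and 133 ± 108 RPKM in the control (SD, n = 2 each). These values were 454 and 509 reads in the knockout and 1664 and 12792 reads in the control. The groups did not overlap, and control 2 was well above control 1. The log2(RPKM + 1) difference was −3.60 ± 0.64 (SE), with a limma adjusted p of 0.143. It was −2.67 without control 2 and −4.53 without control 1. The same gene differed by −5.79 in steps 4 to 8 and by −4.79 in whole testis.

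Over all genes, limma with Benjamini-Hochberg adjustment called 0 of 6634 higher and 0 lower in the knockout (0% in each direction). At an unadjusted p under 0.05 there were 336 genes higher (5.06%) and 193 lower (2.91%), 7.97% in both directions. Limma voom on the recovered reads tested 18485 genes and called 0, with 736 below that unadjusted level. The genotypes did not overlap, with both knockout libraries above both control libraries, in 1416 genes (21.3%), and the other way round in 1001 genes (15.1%). The median difference was 0.08, 55.6% of genes had a positive sign and 44.4% a negative one. Differences given below are on the log2(RPKM + 1) scale, knockout minus control, with their SE, and no gene named passed the adjusted threshold of 0.05.

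The X chromosome held more of the low unadjusted p-values than any autosome, in both directions. Of 170 tested X-linked genes, 28 were higher and 29 lower at an unadjusted p under 0.05, together 33.5%. Of 6464 other genes, 308 were higher and 164 lower, together 7.30%. Not all X-linked members are separate observations. The 29 include the targeted gene Tsga8 and the overlapping gene models Gm614 and Gm20489, and the 28 include 5 Ssxb genes that are near-identical copies. The groups of the X-linked genes did not overlap in 41 genes on the higher side (24.1%) and 50 on the lower side (29.4%). Among other genes these shares were 21.3% and 14.7%, so the higher side was near the rest. The median over all X-linked genes was 0.01, and −0.16 without control 1. In steps 4 to 8 the median of the same 170 genes was −0.70, and in whole testis it was −0.56 over 129 of them.

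**Figure D2:**
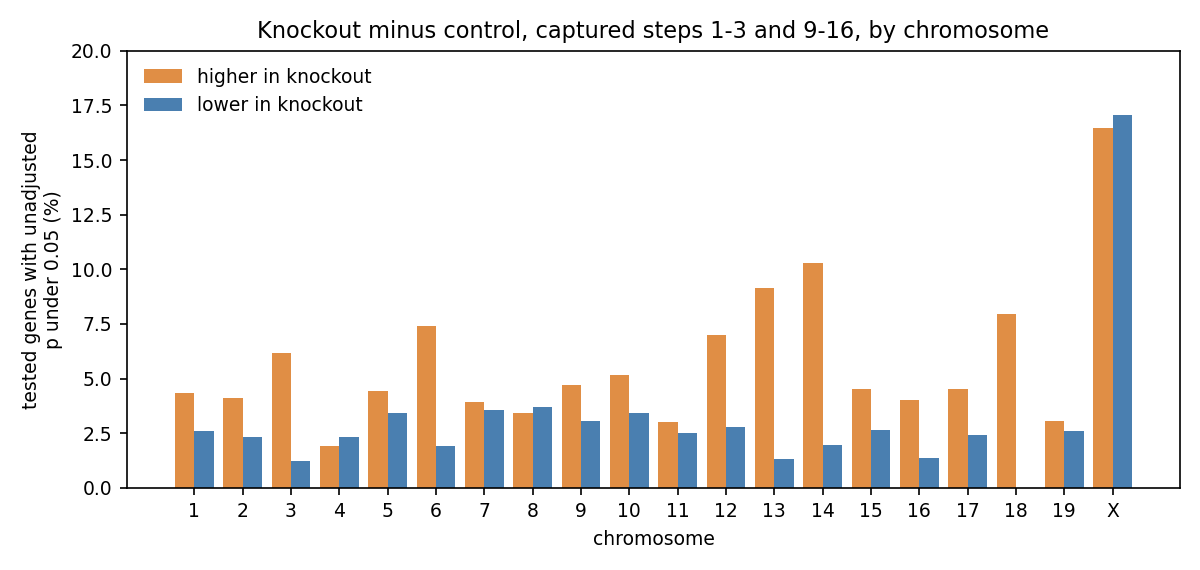
Share of tested genes (y axis, percent) with an unadjusted limma p under 0.05 on each chromosome (x axis), higher in the knockout in orange and lower in blue. The X chromosome reached 16.5% higher and 17.1% lower, and no autosome passed 10.3% in either direction.

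The filter bears on both sides of this count. Among X-linked genes 12 of 170 (7.06%) passed it through the knockout libraries alone and 13 (7.65%) through the control libraries alone, against 3.48% and 3.02% of other genes. Over genes with a mean of at least 5 RPKM in the 4 libraries, 5 X-linked genes were higher and 18 lower of 65. That is together 35.4%, against 5.78% of 2475 other genes. The median of the 65 was −0.85. From a mean of 20 RPKM upward, 0 of 32 X-linked genes were higher and 8 lower, against 26 higher and 10 lower of 931 other genes. Both cuts can be passed through 1 genotype alone, so they do not remove the effect of selection. Dusp21, for example, averaged 1.24 RPKM in the knockout and 32.6 RPKM in the control. Tsga8, the targeted gene, is among the lower genes of both cuts. Without control 1 there were 18 X-linked genes higher and 20 lower (22.4%), against 406 higher and 258 lower of the 6464 others (10.3%). Without control 2 there were 27 higher and 37 lower (37.6%, against 9.08% of others). Without knockout 1 there were 14 and 30, and without knockout 2 there were 22 and 22 (25.9% each, against 3.96% and 5.77%). The gap was smaller with no filter on low values (9.53% of X-linked and 4.96% of other genes) and with limma voom (9.48% and 3.77%).

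Of the 29 X-linked genes of the lower set, 23 stayed at an unadjusted p under 0.05 with limma voom and 17 without control 1. Of the 28 of the higher set, 10 did so with limma voom and 14 without control 1. The members of these sets were picked by their p-values, so their size here is a description. The lower set had a median level of 2.04 RPKM in the knockout and 20.5 RPKM in the control, 19 of 29 genes had a control mean of at least 5 RPKM, and the median difference was −2.32. In steps 4 to 8 the difference was negative for 27 of the 29. Of the 23 that were tested in whole testis, 18 were called lower there (78.3%) and 0 higher. The 18 include Tsga8, and Gm614 with its overlapping model Gm20489. Among all 129 X-linked genes tested in both, 67 were called lower in whole testis (51.9%) and 2 higher, beside 2.04% of all 8146 genes called lower and 4.11% called higher. Those whole testis counts moved with single libraries, from 57 lower calls without knockout 3 to 332 without knockout 1.

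The genes named next on the X chromosome were chosen after their values were seen, apart from those of the sex-linked list. 1700012L04Rik, a clone-named gene, stood at 0.937 and 0.422 RPKM in the knockout, against 20.2 and 14.2 RPKM in the control. It had the lowest p of all genes, with a difference of −3.44 ± 0.43 and a limma adjusted p of 0.069. Gm614 stood at 4.06 and 2.36 RPKM in the knockout, against 232 and 50.8 RPKM in the control (−4.74 ± 0.76), the most negative difference of all tested genes. Its reads were also those of Gm20489, an overlapping gene model with 410 and 362 reads in the knockout and 14234 and 6593 in the control, so the 2 are 1 signal. Gm614 was lower in steps 4 to 8 by the same amount (−4.74) and in whole testis by −3.47.

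Wdr13, which encodes a WD-repeat protein, stood at 0.151 and 0.190 RPKM in the knockout, against 5.34 and 4.38 RPKM in the control (−2.32 ± 0.38). Tspan6, a tetraspanin of cell membranes, stood at 4.24 and 3.63 RPKM in the knockout, against 32.5 and 17.3 RPKM in the control. Both genes had tight knockout replicates and a wide gap to the control. The difference of Tspan6 was −2.33 ± 0.48, with a limma adjusted p of 0.203, and the gene 4930570D08Rik, which lies next to it upstream on the same strand, stood at 2.51 and 2.19 RPKM in the knockout against 25.3 and 21.7 RPKM in the control.

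Dusp21, a dual-specificity phosphatase of the testis, stood at 0.221 and 2.26 RPKM in the knockout, against 16.9 and 48.3 RPKM in the control (−3.90 ± 0.81, limma adjusted p = 0.217). Its reads were 7 and 109 in the knockout, against 325 and 1947 in the control. Prdx4, a peroxiredoxin of the endoplasmic reticulum, stood at 5.77 and 4.69 RPKM in the knockout, against 54.4 and 13.9 RPKM in the control (−2.21 ± 0.67). The Prdx4 groups were apart, but control 1 carried much of the gap: the difference was −1.27 without it and −3.16 without control 2. Tmsb15a, a thymosin that binds actin monomers, stood at 5.26 and 1.01 RPKM in the knockout, against 22.8 and 9.83 RPKM in the control. Rlim, a ubiquitin ligase known for its part in X inactivation in females, stood at 0.398 and 0.367 RPKM in the knockout, against 1.54 and 3.05 RPKM in the control.

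The higher X-linked genes were a different group. Their median level was 4.10 RPKM in the knockout and 0.825 RPKM in the control. None had a control mean of 5 RPKM or more, and 18 of 28 had a control mean under 1 RPKM. Such a gene cannot reach 1 RPKM in both control libraries, so each of the 18 needed at least 1 knockout library to pass the filter. Some also reached it in 1 control library, such as Ssxb1 with 1.45 RPKM in control 1. In steps 4 to 8 their signs were split, 14 positive and 14 negative, around a median of 0.01. Of 14 tested in whole testis, 1 was called higher (Timp1) and 5 were called lower (Gm595, Gm1141, 4930428D18Rik, 4932429P05Rik and Gm7157). That is 35.7%, below the 51.9% of all X-linked genes tested in both. Captured tissue and whole testis went through different library kits, and the difference between them was not tested.

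Timp1, a secreted inhibitor of matrix metalloproteinases, stood at 3.37 and 4.06 RPKM in the knockout, against 0.00839 and 0.00892 RPKM in the control. Those levels were 595 and 1090 reads in the knockout and 0 and 2 reads in the control. The difference was 2.22 ± 0.31, with a limma adjusted p of 0.069, and whole testis called the gene higher as well (1.67, limma adjusted p = 0.018). Timp1 lies within the span of Syn1 on the other strand, and SMART-seq2 reads do not carry the strand. In steps 4 to 8 it stood at 0.004 and 0.189 RPKM in the knockout and 0.0122 and 0.0419 RPKM in the control.

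The Ssxb family, X-linked relatives of the human SSX cancer-testis genes, had 8 members in the table, of which 5 passed the filter. All 5 were above the control in both knockout libraries, as were 21.3% of all tested genes. For Ssxb2 and Ssxb5 the filter fixed that order, since only the knockout libraries reached 1 RPKM. Ssxb1, Ssxb3 and Ssxb6 reached it in control 1 too, but not in control 2, so they also needed a knockout library to pass. Ssxb1 stood at 6.74 and 5.26 RPKM in the knockout, against 1.45 and 0.0622 RPKM in the control (2.11 ± 0.59), and Ssxb6 stood at 8.46 and 3.81 RPKM in the knockout against 1.96 and 0.0147 RPKM in the control. These genes are near-identical copies whose reads the counting may have split or shared, so they make 1 observation and not 5. In whole testis Ssxb1 averaged 0.211 RPKM in the knockout and 0.349 RPKM in the control.

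The following 4 genes of the higher set were picked after their values were seen. Ssr4, a subunit of the translocon-associated complex, stood at 8.61 and 3.93 RPKM in the knockout, against 1.46 and 1.31 RPKM in the control. Ubl4, which helps insert tail-anchored membrane proteins, stood at 5.53 and 4.71 RPKM in the knockout, against 1.43 and 1.92 RPKM in the control. Slc25a5, an ADP/ATP carrier of mitochondria, stood at 5.23 and 14.1 RPKM in the knockout, against 2.65 and 2.35 RPKM in the control. Ngfrap1, a BEX family gene, stood at 9.34 and 6.86 RPKM in the knockout, against 1.41 and 1.56 RPKM in the control. In steps 4 to 8 these 4 genes had differences of 0.82, 0.01, 0.04 and 0.73, none with an unadjusted p under 0.05 there. All 28 genes of the higher set together were split in that region, 14 positive and 14 negative.

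**Figure D3:**
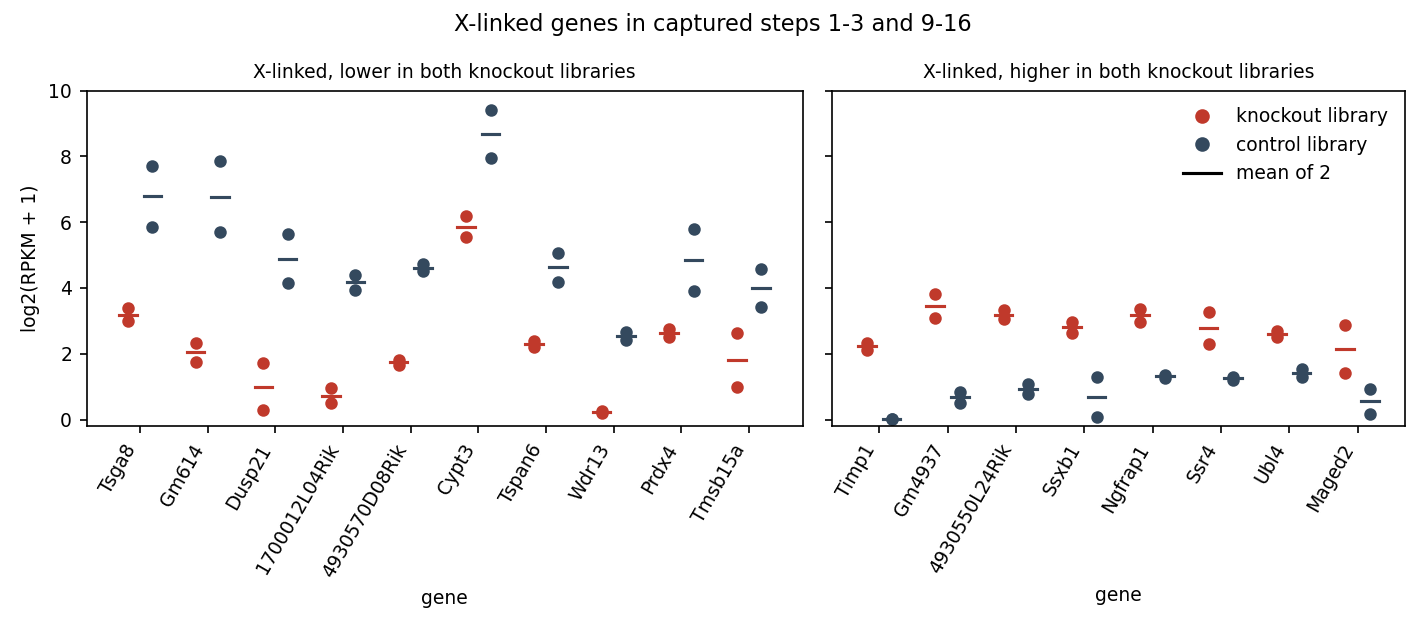
Levels of 18 X-linked genes on the log2(RPKM + 1) scale (y axis) in the 2 knockout libraries (red, left of each pair) and the 2 control libraries (dark blue, right), with the mean of each pair as a line. The left panel holds 10 genes that were lower in both knockout libraries and the right panel 8 that were higher; the lower genes start from the higher control levels, such as 675 and 247 RPKM for Cypt3.

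Whole testis gave a second measurement of these X-linked genes, in other libraries. The plot of both differences shows the lower genes of the captured region below 0 in whole testis too, with Sowahd as the 1 exception, at 0.34. The higher genes of the captured region lie on both sides of 0 in whole testis. Of all 129 X-linked genes, 92 lie below 0 in whole testis (71.3%). Of the 166 genes called lower in knockout whole testis, 113 were tested here and 80 had a negative difference, against 44.4% of all tested genes. Their median was −0.40 (−0.09 without control 2). Without overlap 37 were lower (32.7%, against 15.1% of all tested genes) and 8 higher (7.08%, against 21.3%). When the list was drawn without each whole testis library in turn, its median here lay between −0.86 (without knockout 3) and −0.17 (without knockout 1).

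**Figure D4:**
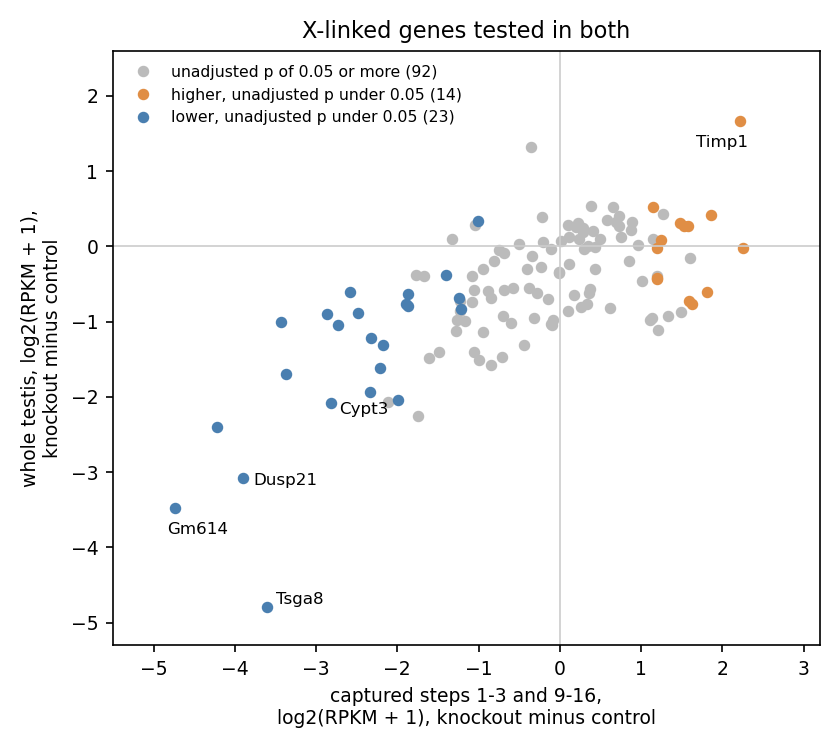
Knockout minus control difference on the log2(RPKM + 1) scale in captured steps 1-3 and 9-16 (x axis) and in whole testis (y axis) for the 129 X-linked genes tested in both. Of the blue genes, lower at an unadjusted p under 0.05 in the captured region, 22 of 23 lie below 0 in whole testis; Tsga8 lies at −3.60 and −4.79 and Timp1 at 2.22 and 1.67.

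The part of that list on the X chromosome and the part on other chromosomes stood differently. The 67 X-linked genes had a median of −0.85, and −0.63 to −0.95 without each library in turn. The 46 genes of other chromosomes had a median of −0.25, which turned to 0.24 without control 2. Kpna1, the importin that stood among the whole testis genes with the most negative difference (−1.60), was at 1.41 and 1.26 RPKM in the knockout and at 0.695 and 2.22 RPKM in the control of this region. Of the 335 genes called higher in whole testis, 245 were tested here and 117 had a positive sign. Without overlap 39 were higher (15.9%, against 21.3% of all tested genes) and 54 lower (22.0%, against 15.1%). The median was −0.02 (0.14 with libraries scaled to a common sum). That median depended on the whole testis libraries: it was 0.25, 0.33, 0.39 and 0.47 for the 19 to 40 genes called higher without control 2, control 3, knockout 2 or knockout 3 of whole testis.

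The sex-linked spermatid list of 46 genes, which earlier results of these data helped to choose, had 18 tested members. None was higher without overlap and 11 were lower (61.1%), against 21.3% and 15.1% of all tested genes. The median was −0.94, and 4 members, Cypt3, Dusp21, Prdx4 and Tspan6, had an unadjusted p under 0.05. Cypt3 stood at 71.7 and 45.5 RPKM in the knockout, against 675 and 247 RPKM in the control (−2.82 ± 0.64, limma adjusted p = 0.232). Cypt1 stood at 296 and 257 RPKM in the knockout, against 735 and 335 RPKM in the control (−0.85 ± 0.59, and −0.28 without control 1). Cypt2 stood at 132 and 56.2 RPKM in the knockout, against 226 and 143 RPKM in the control (−1.05 ± 0.58). The Cypt genes are alike in sequence, so reads may have been shared among them.

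The family was not uniform by chromosome. Cypt12 on chromosome 3 stood at 504 and 357 RPKM in the knockout, against 1202 and 1733 RPKM in the control (−1.76 ± 0.54, limma adjusted p = 0.396), and in whole testis it differed by 0.20. Cypt4 on chromosome 9 stood at 578 and 802 RPKM in the knockout and 531 and 1201 RPKM in the control, so its groups overlapped, and its difference of −0.23 turned to 0.03 with libraries scaled to a common sum. Cypt15 on the X chromosome stood at 9.43 and 50.3 RPKM in the knockout and 102 and 51.7 RPKM in the control.

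Zcchc13, a zinc finger gene of the testis, stood at 16.7 and 17.7 RPKM in the knockout, against 135 and 26.1 RPKM in the control (−1.74 ± 0.94, and −0.57 without control 1). Cylc1, a cylicin of the perinuclear theca, stood at 2.77 and 3.47 RPKM in the knockout, against 5.64 and 8.44 RPKM in the control (−0.95 ± 0.46). Akap4, which anchors kinase to the fibrous sheath of the tail, stood at 17.1 and 33.1 RPKM in the knockout, against 47.8 and 39.9 RPKM in the control. Cetn2, a centrin, stood at 0.700 and 0.475 RPKM in the knockout, against 2.22 and 1.86 RPKM in the control. Actrt1, Tex13a, Ube2dnl, Ubqln2, Pgrmc1 and Spaca5 overlapped between the genotypes. Actrt1 was at −0.71, and at 1.11 without control 1. Pgrmc1 and Spaca5 had a positive sign, which quantile normalization turned for Spaca5.

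The chromatin condensation list held 36 genes, 21 of them tested. Without overlap, 5 were lower (23.8%) and 2 higher (9.52%), against 15.1% and 21.3% of all tested genes. None had an unadjusted p under 0.05, and the median was −0.39. It came to −0.11 without knockout 2 and to −0.04 with quantile normalization. Prm1, protamine 1, stood at 7064 and 1842 RPKM in the knockout and 35227 and 6425 RPKM in the control (−2.06 ± 1.07, limma adjusted p = 0.695). Its groups overlapped, since knockout 1 lay above control 2. Tnp2, transition protein 2, stood at 615 and 853 RPKM in the knockout, against 5845 and 1699 RPKM in the control (−2.12 ± 1.14). Tnp1 stood at 2667 and 955 RPKM in the knockout and 11130 and 2366 RPKM in the control.

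Control 1 had the largest share of such transcripts. Without it Prm1 was at −0.83, Tnp1 at −0.57 (−1.68 with it) and Tnp2 at −1.23, while the list median was −0.51. Prm2 stood at 17159 and 7471 RPKM in the knockout and 40072 and 8541 RPKM in the control, and its difference of −0.71 turned to 0.41 without control 1. Prm3 stood at 646 and 356 RPKM in the knockout, against 1469 and 767 RPKM in the control (−1.14 ± 0.58), and Hils1, the spermatid linker histone, stood at 543 and 606 RPKM in the knockout against 1067 and 858 RPKM in the control. H1fnt, the other haploid linker histone, overlapped, at 132 and 322 RPKM in the knockout and 626 and 261 RPKM in the control. On the higher side, H2afz, the histone variant H2A.Z, stood at 110 and 121 RPKM in the knockout, against 95.4 and 23.5 RPKM in the control. Whether the make-up of control 1 or the genotype set these levels cannot be told apart with 2 libraries per genotype.

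Head shaping, the perinuclear theca and the manchette, the microtubule skirt that moulds the nucleus, had 55 genes on their list and 39 tested. Without overlap 9 were lower (23.1%) and 1 higher (2.56%), against 15.1% and 21.3% of all tested genes. The median was −0.24, which came to −0.02 without knockout 1 and to −0.00384 after scaling every library to 1 sum. The 9 were Cypt1, Cypt3, Cypt12, Cylc1, Actl9, Spag17, Fam46c, Csnk2a2 and Gmcl1, and 3 of them are X-linked. Actl9, an actin-like protein, stood at 104 and 127 RPKM in the knockout, against 418 and 180 RPKM in the control (−1.25 ± 0.67, and −0.65 without control 1). Fam46c, which holds the sperm head to the tail, stood at 6.02 and 5.25 RPKM in the knockout, against 11.3 and 7.30 RPKM in the control.

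Genes of the manchette and the nuclear envelope link gave overlapping groups. Hook1, which joins the manchette to the nucleus, stood at 3.69 and 6.997 RPKM in the knockout and 4.18 and 6.16 RPKM in the control. Spag4, a SUN protein of the nuclear envelope, stood at 25.5 and 33.6 RPKM in the knockout and 38.3 and 30.2 RPKM in the control. Capza3, an actin capping subunit of sperm, stood at 214 and 259 RPKM in the knockout and 490 and 128 RPKM in the control. Ccin, calicin of the theca, had the widest spread, at 6.06 and 36.9 RPKM in the knockout and 16.0 and 127 RPKM in the control. Plcz1, the sperm factor that activates the egg, was the 1 member higher without overlap, at 5.80 and 7.35 RPKM in the knockout against 4.23 and 4.68 RPKM in the control.

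Among autosomal genes the lowest p-values on the higher side belonged to Gm6369 and Vmn1r40, each with a limma adjusted p of 0.069. Gm6369, a predicted gene named after its values were seen, stood at 7.48 and 4.37 RPKM in the knockout, against 0.0894 and 0.0428 RPKM in the control (2.66 ± 0.34). Vmn1r40, a vomeronasal receptor gene, stood at 10.2 and 6.32 RPKM in the knockout, against 0.365 and 0.0197 RPKM in the control (2.94 ± 0.40). Its reads were 367 and 346 in the knockout and 8 and 0 in the control. Rabggtb, a subunit of the enzyme that attaches lipid anchors to RAB proteins and named here after its values were seen, stood at 5.22 and 4.25 RPKM in the knockout, against 0.0600 and 0.320 RPKM in the control (2.27 ± 0.34). Bub1, a spindle checkpoint kinase, stood at 8.50 and 8.91 RPKM in the knockout, against 1.85 and 0.944 RPKM in the control (2.04 ± 0.39). In whole testis Bub1 differed by −0.16 and Vmn1r40 was not tested.

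The abundant gene on that side was Tmem225, a membrane protein gene of spermatids, at 280 and 178 RPKM in the knockout against 37.9 and 54.1 RPKM in the control (2.28 ± 0.53, limma adjusted p = 0.240). Chac1, which degrades glutathione and is induced in stress of the endoplasmic reticulum, stood at 10.2 and 3.49 RPKM in the knockout, against 0.162 and 0.0517 RPKM in the control. Kpna2, an importin, stood at 19.4 and 25.8 RPKM in the knockout, against 7.44 and 3.34 RPKM in the control. Pno1, Nudcd2, Hist1h4c, Cstb and Gtf2e2 completed the rule's list with differences of 1.44 to 2.12, as did the overlapping neighbours Gnpda2 (2.34) and Guf1 (1.89), whose reads may be shared. Cstb, cystatin B, was also positive in steps 4 to 8 (1.43) and in whole testis (0.62, limma adjusted p = 0.0634).

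On the lower side outside the X chromosome, Zfp956, a zinc finger gene, stood at 0.365 and 2.83 RPKM in the knockout, against 10.01 and 6.82 RPKM in the control (−2.02 ± 0.52). Pou5f2, a POU-domain factor of the testis, stood at 0.344 and 1.07 RPKM in the knockout, against 7.61 and 4.51 RPKM in the control (−2.05 ± 0.54). Timm8a2, a chaperone of mitochondrial import, stood at 1.66 and 1.57 RPKM in the knockout, against 10.6 and 7.95 RPKM in the control (−1.96 ± 0.56). None of the 3 was lower in whole testis, where they differed by 0.27, 0.39 and 0.15. Zbtb42 and Hspb6, a small heat shock protein, differed by −1.90 and −1.82 here and by 0.27 and 0.07 in whole testis.

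Acrosome genes, whose products fill or line the cap over the nucleus, had 8 members higher and 1 lower without overlap. Of 47 genes 35 were tested, so these were 22.9% and 2.86%, against 21.3% and 15.1% of all tested genes, and the median was 0.41. Spam1 and Prss55, named after their values were seen, had an unadjusted p under 0.05. Spam1, a sperm hyaluronidase, stood at 26.1 and 15.5 RPKM in the knockout, against 4.08 and 6.66 RPKM in the control (1.76 ± 0.48), and Prss55, a serine protease, stood at 1.503 and 4.82 RPKM in the knockout against 16.1 and 7.92 RPKM in the control (−1.70 ± 0.66). The median turned to −0.13 without control 1, the library with few early round spermatid transcripts. Izumo3 stood at 207 and 119 RPKM in the knockout, against 94.7 and 46.3 RPKM in the control, and Spaca4 at 309 and 123 RPKM in the knockout and 37.6 and 566 RPKM in the control (0.41, and −1.53 without control 1).

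Genes of the tail showed no common direction. Of 33 tested genes for fibres and sheaths, 5 were higher (15.2%) and 10 lower (30.3%) without overlap, against 21.3% and 15.1% of all tested genes. Their median of −0.09 turned to 0.15 with libraries scaled to a common sum. Oaz3, an antizyme of the tail, stood at 1640 and 1072 RPKM in the knockout, against 3344 and 1662 RPKM in the control (−0.83 ± 0.57, and −0.33 without control 1). Gk2, a glycerol kinase of the mitochondrial sheath, stood at 310 and 334 RPKM in the knockout, against 209 and 114 RPKM in the control (1.06 ± 0.52). Lrrc8b, an anion channel subunit named after its values were seen, was the 1 member with an unadjusted p under 0.05, at 1.02 and 2.02 RPKM in the knockout against 3.82 and 7.67 RPKM in the control.

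The axoneme, the microtubule core of the tail, had 30 tested genes, 4 higher (13.3%) and 7 lower (23.3%) without overlap and a median of −0.03 that scaling to a common sum turned to 0.14. Meig1, needed for tail formation, stood at 458 and 194 RPKM in the knockout and 453 and 284 RPKM in the control. Tubb4b, a beta-tubulin, stood at 130 and 133 RPKM in the knockout against 169 and 148 RPKM in the control (−0.27 ± 0.48). Ion channels and transporters had 16 tested genes, 2 higher (12.5%) and 4 lower (25%) without overlap, against 21.3% and 15.1% of all tested genes. Their median of −0.16 turned to 0.27 without control 2, and Efcab9, Slco6c1 and Slc2a3 had an unadjusted p under 0.05. Efcab9, a calcium sensor of the CatSper channel, stood at 82.5 and 34.3 RPKM in the knockout against 7.57 and 31.8 RPKM in the control (1.70, and 0.73 without control 1), and Slc2a3, a glucose transporter, named after its values were seen like Slco6c1 (1.27), stood at 2.12 and 3.26 RPKM in the knockout against 8.90 and 6.63 RPKM in the control.

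Testis kinases and energy metabolism had 42 tested genes, of which 14 were higher (33.3%) and 10 lower (23.8%) without overlap. Over all tested genes these shares were 21.3% and 15.1%. The higher ones included Pgk2, the glycolytic kinase of spermatids, at 763 and 832 RPKM in the knockout against 751 and 284 RPKM in the control. The lower ones included Tssk6, a testis serine kinase also on the chromatin list, at 94.7 and 125 RPKM in the knockout against 344 and 136 RPKM in the control (−0.99, and −0.32 without control 1). Ldhc, the lactate dehydrogenase of germ cells, overlapped at 264 and 253 RPKM in the knockout and 369 and 185 RPKM in the control. The list median of −0.07 turned to 0.17 with a common sum and to 0.23 without control 1, and 0 members had an unadjusted p under 0.05.

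Transcription and RNA regulators of spermatids had 31 tested genes, 7 higher (22.6%) and 4 lower (12.9%) without overlap. These were near the 21.3% and 15.1% of all tested genes. The list median of −0.01 turned to 0.16 with a common sum. Pabpc1, the poly(A) binding protein, stood at 39.6 and 53.7 RPKM in the knockout against 53.7 and 81.8 RPKM in the control. Zfp541, named after its values were seen, was the 1 member with an unadjusted p under 0.05 (−0.95 ± 0.42). Cytoplasm removal and the ubiquitin system had 36 tested genes, 8 higher (22.2%) and 5 lower (13.9%) without overlap, also near the shares of all tested genes. Atg4d, a protease of autophagy named likewise, was at −1.06 ± 0.35, and the list median was 0.02. That median was −0.05 with libraries centred on their medians or quantile normalized and −0.39 without control 2.

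Among housekeeping lists the proteasome, which breaks down tagged proteins, had members on 1 side. Of 37 tested subunits, 16 were higher (43.2%) and 0 lower without overlap, against 21.3% and 15.1% of all tested genes. The median of 0.33 was 0.30 to 0.56 without each library in turn. Psmb6, a catalytic core subunit, stood at 254 and 263 RPKM in the knockout, against 188 and 137 RPKM in the control (0.68 ± 0.49). Psma3, Psma5 and Psmd12, named after their values were seen, had an unadjusted p under 0.05, and Psma5 stood at 4.94 and 4.63 RPKM in the knockout against 1.48 and 1.48 RPKM in the control (1.22 ± 0.51). Psmd8 and Psmc3 overlapped between the genotypes.

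Oxidative phosphorylation had 81 tested genes, 22 higher (27.2%) and 3 lower (3.70%) without overlap, against 21.3% and 15.1% of all tested genes. Its median was 0.24. That median turned to −0.08 without knockout 1 and came to 0.64 without knockout 2. Cycs, somatic cytochrome c, stood at 9.61 and 10.7 RPKM in the knockout against 3.84 and 3.36 RPKM in the control (1.28 ± 0.45), and Ndufa4 and Ndufs1, named like Cycs after their values were seen, were the other members with an unadjusted p under 0.05. The abundant members overlapped, as did Uqcrq at 394 and 171 RPKM in the knockout and 300 and 203 RPKM in the control. Ribosomal protein genes had 81 tested members, 3 higher (3.70%) and 2 lower (2.47%), fewer without overlap than the 21.3% and 15.1% of all genes. They split the knockout libraries: their median of −0.08 was −0.78 without knockout 1 and 0.56 without knockout 2.

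The unfolded protein response and heat shock list had 34 tested genes, 9 higher (26.5%) and 4 lower (11.8%) without overlap. Over all tested genes these shares were 21.3% and 15.1%. The list median of 0.23 turned to −0.02 without control 1. Its members with an unadjusted p under 0.05 went both ways. Chac1 (above), Dnajb9, a chaperone partner in the endoplasmic reticulum, and Hsf2, a heat shock factor, were higher, while Ddit3, the stress-induced factor CHOP, stood at 8.18 and 8.28 RPKM in the knockout against 26.5 and 16.6 RPKM in the control (−1.25 ± 0.46). The last 3 were named after their values were seen. Dnajb3 and Dnajb8, abundant spermatid co-chaperones, overlapped.

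**Figure D5:**
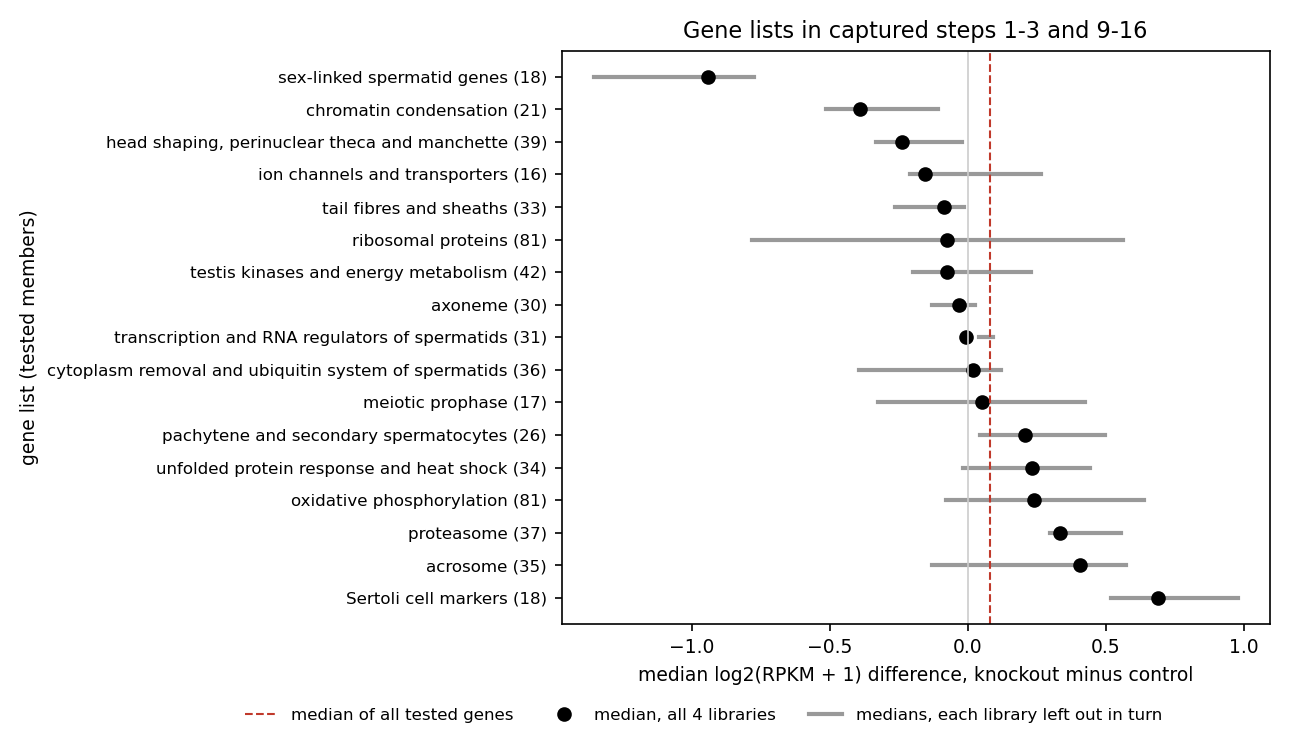
Median difference on the log2(RPKM + 1) scale (x axis, knockout minus control) of 17 gene lists with their numbers of tested genes (y axis); points are medians over the 4 libraries, grey bars span the medians with each library left out in turn, and the dashed line is the median of all tested genes, 0.08. Sex-linked spermatid genes lie lowest at −0.94 and Sertoli markers highest at 0.69; the bar of ribosomal proteins, from −0.78 to 0.56, crosses 0.

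Markers of other germ cells were few or mixed. Of 17 tested meiotic prophase genes, 2 were higher (11.8%) and 4 lower (23.5%) without overlap, against 21.3% and 15.1% of all tested genes. Their median of 0.05 turned to −0.33 without control 1. Sycp3, of the synaptonemal complex, stood at 18.2 and 30.1 RPKM in the knockout against 11.5 and 12.8 RPKM in the control, while H2afx, the histone of DNA breaks, stood at 10.2 and 12.1 RPKM in the knockout against 14.01 and 18.9 RPKM in the control. Pachytene and secondary spermatocyte genes had 26 tested members, 6 higher (23.1%) and 0 lower without overlap, against the same 21.3% and 15.1%. Ccnb1 and Ccnb2, cyclins of cell division named after their values were seen, had an unadjusted p under 0.05, and Ccnb2 stood at 20.7 and 19.6 RPKM in the knockout against 7.27 and 8.15 RPKM in the control (1.28 ± 0.43). Of 25 spermatogonial genes 2 were tested, Pcna (0.76) and Id4 (−1.12).

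Sertoli cell markers had the highest median of the lists with at least 5 tested members, 0.69, and kept it positive under every scaling and at 0.52 to 0.98 without each library in turn. Of 36 markers 18 were tested, 9 were higher (50.0%) and 0 lower without overlap, against 21.3% and 15.1% of all tested genes. Cst9, Vim and Aard had an unadjusted p under 0.05. Cst9, a cystatin secreted by Sertoli cells, stood at 244 and 166 RPKM in the knockout, against 66.6 and 52.9 RPKM in the control (1.74 ± 0.60). Aard stood at 15.5 and 16.2 RPKM in the knockout against 4.85 and 7.51 RPKM in the control, and Vim, vimentin, at 4.11 and 4.99 RPKM in the knockout against 0.259 and 1.51 RPKM in the control. Defining Sertoli genes were among those that overlapped, with Sox9 at 0.0888 and 1.57 RPKM in the knockout and 0.139 and 1.80 RPKM in the control, and Clu at 13.5 and 22.7 RPKM in the knockout and 3.35 and 32.8 RPKM in the control. Aard, Vim, Sox9 and Clu were named after their values were seen, and the part of Sertoli RNA in the other differences was not tested.

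Other somatic lists had few tested genes. Insl3, the Leydig hormone, stood at 1.94 and 21.4 RPKM in the knockout and 8.42 and 77.9 RPKM in the control. Myl9, a smooth muscle light chain of peritubular cells, stood at 5.79 and 8.88 RPKM in the knockout against 2.00 and 2.23 RPKM in the control (1.40 ± 0.42, limma adjusted p = 0.396), and whole testis called it higher (0.60). Apoe stood at 11.1 and 7.93 RPKM in the knockout and 39.1 and 10.3 RPKM in the control (−1.04, and −0.13 without control 1), with all 4 tested macrophage markers of negative sign and 1 without overlap, Cx3cr1; their median of −0.41 turned to 0.20 without control 1. Jund, an AP-1 subunit, stood at 0.288 and 0.243 RPKM in the knockout against 4.34 and 2.32 RPKM in the control (−1.73 ± 0.39, limma adjusted p = 0.232), while Klf4, Ier5 and Nr4a1 overlapped. Its locus also carries Gm11175, so the reads may be shared.

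Most of the 12 most abundant genes of the region overlapped between the genotypes. Of the 12 with the highest mean RPKM, Prm1, Prm2, Tnp1, Hspb9, Dbil5, Hmgb4, Gstm5, 1700024P04Rik, Gm5617 and Pgp overlapped, and Tnp2 and Oaz3 were lower without overlap. Hspb9, a small heat shock protein of the testis, stood at 8237 and 2240 RPKM in the knockout and 5159 and 1991 RPKM in the control. Dbil5, a testis relative of the acyl-CoA binding protein, stood at 5156 and 1264 RPKM in the knockout and 4575 and 2286 RPKM in the control. In Hspb9 and Dbil5 the knockout replicates were farther apart than the genotype means.

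The genotype differences of the 2 captured regions were set against each other in 1 fit. Limma called 0 of 6634 genes as different between regions (0%), with 204 (3.08%) at an unadjusted p under 0.05, and limma voom called 0 of its 18485 genes, with 432 at that level. Timp1 and Ssxb1 differed between the regions by 2.13 ± 0.44 and 1.84 ± 0.83, and Tsga8 by 2.20 ± 0.91, each with a limma adjusted p that rounds to 1. With 2 libraries per group an exact two-sided permutation test of a single gene cannot go below p = 0.333.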

How the data were processed

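RNA was sequenced from 14 libraries in 6 groups. Per the labels' protocols, captured tissue was lysed in Isogen and amplified with SMART-seq2, which keeps no strand, and whole testis went through a directional kit. FastQC, Trim Galore 0.4.0, HISAT2 2.1.0 and the mm10 build are named in the submitters' processing notes; how reads were counted, on which gene models and with which strand setting, is not given in the sources used here. Deposited by the authors was 1 table of log2 RPKM per gene. From its values, the length in RPKM was the whole gene span (median 13.356 kb), and a gene without reads was entered as 0.9 reads. The test had been planned for RPKM, so the log2 values were turned back into RPKM.

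Genes with at least 1 RPKM in 2 of the 4 libraries were tested with limma 3.58.1 (R 4.3.3) on log2(RPKM + 1), trend option on, with 4 group means over the 8 captured libraries and Benjamini-Hochberg adjustment over all 6634 genes. A pseudocount of 1 understates changes of low genes. Whole testis was fitted apart over 6 libraries and 8146 genes. Whole reads were recovered for limma voom as a count test. Tables used pandas 2.3.3 and plots matplotlib 3.10.9. Named genes were Tsga8, up to 12 genes per direction with the lowest p and no overlap, at least 5 RPKM in the higher genotype and no clone name, the 4 most abundant tested members of each list, the 12 most abundant genes and the whole testis genes with the largest differences. The genes studied and the 27 lists were chosen with earlier results of these data known. p-values measure the spread between these samples, since the labels do not tie each capture to an animal. Alternatives were other pseudocounts, filters, scalings, models, a replicate term and leaving out each library.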

Additional observations from a re-analysis of the deposited data

Results flagged for a closer look

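The following 6 named genes were below the control in both knockout libraries of the captured region and above it in every knockout library of whole testis. The difference between the 2 tissues was not tested, and they were prepared with different kits. On the log2(RPKM + 1) scale, knockout minus control, Zfp956 was at −2.02 in the captured region and 0.27 in whole testis. Pou5f2 was at −2.05 in the region and 0.39 in whole testis, and Timm8a2 at −1.96 in the region and 0.15 in whole testis. Zbtb42 was at −1.90 in the region and 0.27 in whole testis. The other 2 were close to 0 on both sides: Tubb4b was at −0.27 in the region and 0.29 in whole testis, and Cx3cr1 was at −0.49 in the region and 0.079 in whole testis.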

How the results depend on the processing

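With a pseudocount of 4, limma called 5 genes (4 higher, 1 lower in the knockout), and with quantile normalization 11 (5 higher, 6 lower). All other settings, leaving out each library included, called 0. The deviations of same-numbered knockout and control libraries of the region had a correlation of 0.0947 over 6634 genes. With 2 libraries per genotype this rests on 1 contrast in each, so it cannot tell whether the numbers pair libraries. The fit with the replicate block called 0 genes, with 524 at an unadjusted p under 0.05. It gave Tsga8 −3.60 with a limma adjusted p of 0.269. A fit that treats captures of the same genotype and number as 1 animal also called 0. Without each of its libraries in turn, whole testis gave between 76 and 1531 calls, chosen after seeing the data; the fewest came without knockout 3 and the most without control 1. Scaling to a common sum moved the median of all genes to 0.24 from 0.08. In a count of results for named genes, 333 kept their direction and side of the threshold and 2 passed it, both Vmn1r40 (pseudocount of 4 and quantile normalization). That count leaves out clone-named genes and does not stand for every gene named here. Some turned sign with 1 library left out: without control 1, Prm2 came to 0.41, Spaca4 to −1.53 and Actrt1 to 1.11. Of the genes called, 2 at a pseudocount of 4 (1 higher, 1 lower) and 7 with quantile normalization (2 higher, 5 lower) were X-linked. With 2 libraries per genotype, intervals cover the spread of these libraries only, and control 1 rested on 23467200 reads. Low RPKM meant few reads mainly in short genes, such as 1700012L04Rik with 19 and 13 reads in the knockout. Rlim, a longer gene at 0.398 and 0.367 RPKM in the knockout, had 371 and 520 reads there.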
